A study of Mus musculus with 15 samples.

Results

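The regions described here are H3K27me3 peaks of EL4 cells that touched an accessible site, that is, merged autosomal H3K27me3 peaks sharing at least 1 bp with a merged ATAC-seq peak and touching no merged H3K4me3 peak. The rule found 140 of the 43304 autosomal H3K27me3 peaks (0.323%), and they held 144 of the 20273 autosomal ATAC-seq peaks. In all, 265 H3K27me3 peaks touched an ATAC-seq peak, and 125 of them were left out because they also touched H3K4me3. Another 160 touched H3K4me3 without ATAC-seq and 42879 touched neither. The members were therefore chosen by measured values, and their accessibility, their lack of H3K4me3 and whatever follows from these are a description and not a result.

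EL4 is a mouse T lymphoblast line from a lymphoma of a C57BL/6N animal, and the cells profiled here carried no treatment. The chromatin data comprised ChIP-seq of H3K27me3, H3K4me3, H3K27ac, H3K9ac and H3K36me2 and ATAC-seq, each with 2 replicates, which the study names technical replicates for ATAC-seq and when it pools peak calls. The study mapped the 5 marks to compare histone labelling rates, measured by mass spectrometry, with open chromatin and transcription. It intersected the ChIP-seq data with ATAC-seq and RNA-seq. It proposes that labelling relates more to active transcription than to accessibility alone. The files give the positions of called intervals only, so a value below is a number of intervals or a distance in base pairs, never a signal strength.

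H3K27me3 is written by the Polycomb repressive complex PRC2 and typically lies over broad domains of silent genes, among them developmental regulators. ATAC-seq marks DNA that a transposase can reach, usually short nucleosome-depleted stretches at promoters and enhancers. H3K4me3 marks active and poised promoters, H3K27ac and H3K9ac mark active promoters and enhancers, and H3K36me2 covers active or intergenic chromatin outside Polycomb domains.

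A few promoter sequences show how gene starts in these peaks differed in CG content. The 5 below came from RefSeq on GRCm38.p6 and span 250 bases before to 50 bases after a gene start, read 5′ to 3′ on the gene's strand. The first is shown because it was the one promoter of the sequence table that an accessible site touched, and its capitals mark the 184 bases inside the ATAC-seq interval. The other four belong to genes touched by a site called in both replicates, and their capitals mark CG dinucleotides, the same on both strands.
Sbk2 (chr7:4964357-4964656, minus strand): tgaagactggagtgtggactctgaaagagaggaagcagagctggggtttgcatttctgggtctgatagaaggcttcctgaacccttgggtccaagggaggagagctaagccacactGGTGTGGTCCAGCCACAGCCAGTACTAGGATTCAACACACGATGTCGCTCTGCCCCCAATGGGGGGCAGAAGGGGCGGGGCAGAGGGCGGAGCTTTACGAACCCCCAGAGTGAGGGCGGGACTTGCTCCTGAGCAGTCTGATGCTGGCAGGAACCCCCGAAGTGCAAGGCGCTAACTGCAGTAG
Iqsec3 (chr6:121473629-121473928, minus strand): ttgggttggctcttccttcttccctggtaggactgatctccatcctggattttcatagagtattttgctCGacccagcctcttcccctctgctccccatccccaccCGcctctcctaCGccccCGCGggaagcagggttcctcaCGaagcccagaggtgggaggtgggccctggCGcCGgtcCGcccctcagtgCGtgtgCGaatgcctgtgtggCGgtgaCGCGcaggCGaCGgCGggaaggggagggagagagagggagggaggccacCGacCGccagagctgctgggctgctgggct
Zcchc14 (chr8:121651884-121652183, minus strand): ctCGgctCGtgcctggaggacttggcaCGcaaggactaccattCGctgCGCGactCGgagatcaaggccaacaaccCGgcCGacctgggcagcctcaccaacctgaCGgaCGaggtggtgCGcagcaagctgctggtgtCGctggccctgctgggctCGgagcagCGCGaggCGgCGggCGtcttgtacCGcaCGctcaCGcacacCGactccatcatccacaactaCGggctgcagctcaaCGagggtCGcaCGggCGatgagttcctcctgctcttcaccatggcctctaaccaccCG
Cgas (chr9:78443188-78443487, minus strand): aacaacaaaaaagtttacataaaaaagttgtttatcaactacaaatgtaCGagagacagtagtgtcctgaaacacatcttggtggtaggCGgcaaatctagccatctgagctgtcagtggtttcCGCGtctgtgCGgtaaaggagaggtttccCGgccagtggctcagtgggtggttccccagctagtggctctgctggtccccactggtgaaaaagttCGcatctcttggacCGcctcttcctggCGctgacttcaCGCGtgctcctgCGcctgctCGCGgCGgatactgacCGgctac
Ppfibp2 (chr7:107665228-107665527, plus strand): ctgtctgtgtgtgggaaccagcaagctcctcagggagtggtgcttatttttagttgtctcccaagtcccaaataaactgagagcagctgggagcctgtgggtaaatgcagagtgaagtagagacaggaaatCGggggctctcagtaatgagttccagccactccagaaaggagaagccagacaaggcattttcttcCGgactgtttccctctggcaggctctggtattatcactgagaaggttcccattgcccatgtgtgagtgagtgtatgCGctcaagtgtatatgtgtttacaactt

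The Iqsec3, Zcchc14 and Cgas starts were rich in CG, with 19, 29 and 16 of them, whereas Sbk2 had 8 and Ppfibp2 had 3. Not all are the outermost start of their gene. The peak with the Ppfibp2 start lay in the gene's interior, more than 2 kb from either annotated end, and the Zcchc14 start lay inside the annotated gene near its end. These are not the nearest starts to a site in every case. Ccdc110 with 10 CG lay 177 bp from a site called in a single replicate, 9330175M20Rik with 8 CG lay 315 bp and Cacng3 with 9 CG lay 698 bp from such a site. The accessible interval lay 276 bp from the Iqsec3 start, 708 bp from that of Ppfibp2, 990 bp from that of Zcchc14 and 3430 bp from that of Cgas. Over all 54 table promoters of 41 genes inside the 140 peaks, the median was 5.5 CG per 300 bases and 31.5% had at least 10. This was below the share over all 31396 table promoters, which had a median of 7 and 43.95% with at least 10. For the 17001 promoters in neither H3K27me3 nor H3K4me3 the values were 4 and 24.7%. Over 4006 promoters in other H3K27me3 peaks that had no H3K4me3 at the promoter itself the median was 3 and 16.9% had at least 10, and among the 114 promoters that touched both H3K27me3 and H3K4me3 it was 23.5, with 91.2% at or above 10. Of the 54 promoters 1 touched an ATAC-seq peak, whereas 75 of the 114 with both marks did. With H3K4me3 and no H3K27me3 it was 9058 of 10221. Without H3K4me3 at the promoter it was 0 of the 4006 in other H3K27me3 peaks and 95 of the 17001 in neither mark. The rule left out peaks with H3K4me3 and took in every other H3K27me3 peak with a site. These counts thus largely follow from it, and no difference is read from them.

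The label of the cells was checked against marker genes, counting a gene as marked where H3K4me3 of both replicates touched a gene end. Of the T lymphocyte markers 7 of 7 were marked, against 1 of 5 B lymphocyte markers (Cd79a) and 2 of 5 myeloid markers (Spi1 and Lyz2). The share of all genes marked in this way was not computed. By another measure, H3K4me3 without H3K27me3 lay at 10221 of the 31396 table promoters. The B lymphocyte and myeloid counts are therefore not read as low or high. The merged autosomal lists came from 45491 and 37618 H3K27me3 intervals and from 17101 and 18788 ATAC-seq intervals in replicates 1 and 2. With 2 replicates per assay no exact permutation test could pass the usual threshold, so no p-value is given, and regions are not replicates of one another.

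The chosen peaks were broad. Their widths ran from 999 to 211199 bp with a median of 12399 bp, against a median of 5599 bp for the H3K27me3 peaks not chosen. A wide peak has more room to touch a site, and the rule thus favours width. The share of peaks without H3K4me3 that were chosen was 0.0732% (14 of 19129) below 5 kb, 0.275% (37 of 13442) from 5 to 10 kb, 0.536% (39 of 7272) from 10 to 20 kb and 1.57% (50 of 3176) above that. Per megabase of H3K27me3 the sites numbered 0.227, 0.396, 0.388 and 0.50 in these classes, a narrower range than the share of peaks. Of the 140 peaks 137 held 1 site, 2 held 2 sites and 1 held 3.

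**Figure D1:**
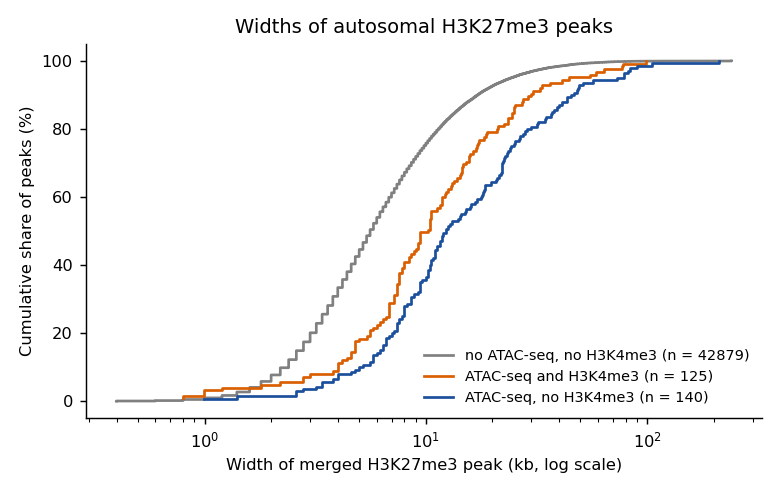
Cumulative share of autosomal H3K27me3 peaks (y axis, %) by width (x axis, kb, log scale) for peaks touching ATAC-seq without H3K4me3, peaks touching both and peaks touching neither. The 140 chosen peaks lie to the right of the 42879 peaks with neither, with medians of 12399 and 5599 bp.

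Members near the edge of the rule show how much hangs on single bases. The 5 smallest overlaps between a chosen peak and its site were 1, 4, 11, 14 and 74 bp, while the 5 nearest ATAC-seq peaks outside the rule lay 2, 25, 26, 38 and 41 bp from an H3K27me3 peak. In all, 264 peaks that touched neither ATAC-seq nor H3K4me3 had an ATAC-seq peak within 1000 bp. At the other limit, the nearest H3K4me3 peaks outside chosen peaks were 122, 249, 340, 355 and 417 bp away, and 8 chosen peaks had H3K4me3 within 1000 bp.

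Most of the H3K27me3 peaks were called in both replicates, but most of their accessible sites were not. Intervals of both H3K27me3 replicates touched 108 of the 140 peaks (77.1%), against 53.6% of the peaks not chosen, with 15 peaks in replicate 1 alone and 17 in replicate 2 alone. This difference went with width. Within width classes the chosen and other peaks were at 21.4 and 20.8% below 5 kb, 54.1 and 67.6% from 5 to 10 kb, 89.7 and 94.0% from 10 to 20 kb and 100 and 99.5% above.

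Both ATAC-seq replicates held 52 of the 144 sites (36.1%), while 41 were in replicate 1 only and 51 in replicate 2 only. For other ATAC-seq peaks that touched neither H3K4me3 nor H3K27me3 the share was 45.5% (2074 of 4557). It was 37.5% (692 of 1846) for those that touched none of the 5 marks and 81.0% (12601 of 15565) for those with H3K4me3. The sites were thus close to the unmarked ATAC-seq peaks in their replicate support and far from those at H3K4me3.

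**Figure D2:**
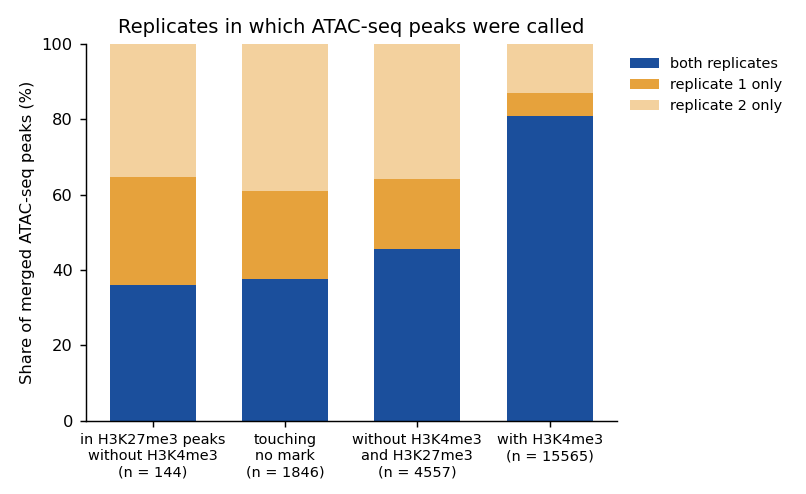
Share of merged ATAC-seq peaks (y axis, %) called in both replicates, in replicate 1 only or in replicate 2 only, for 4 classes of peak by the marks they touch; peaks that touch no mark also count among those without H3K4me3 and H3K27me3. The first bar, the 144 sites, has 36.1% in both replicates and the last, with H3K4me3, has 81.0%.

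The sites were also narrow. Their median width was 279 bp (range 200 to 633 bp), with 363 bp for the 52 sites of both replicates and 222 bp for the 92 others. At 200 bp, the smallest width in the ATAC-seq lists, stood 33 sites (22.9%), of which 1 was called in both replicates. The matching shares were 14.7% in other ATAC-seq peaks without H3K4me3 and H3K27me3, 18.8% in unmarked ones and 3.91% in those with H3K4me3. How far the smallest calls account for the low replicate support was not tested.

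Recurrence in the other replicate is a measure that the choice did not use. From replicate 1 lists alone the rule gave 55 peaks, of which 32 (58.2%) touched an ATAC-seq interval of replicate 2 and 44 (80.0%) an H3K27me3 interval of replicate 2. From replicate 2 alone it gave 81 peaks, of which 40 (49.4%) touched ATAC-seq and 70 (86.4%) H3K27me3 of replicate 1. H3K27me3 peaks of a replicate that met neither ATAC-seq nor H3K4me3 touched ATAC-seq of the other replicate in 31 of 45250 and 27 of 37337 cases. Counted by site, 57.1% of replicate 1 sites (32 of 56) recurred in replicate 2, against 71.5% of replicate 1 ATAC-seq peaks outside H3K4me3 and H3K27me3. From replicate 2 to replicate 1 the shares were 52.4% (44 of 84) and 57.4%. Against those peaks the share of the sites was the lower one in both directions. For unmarked ATAC-seq peaks it was 64.5% (900 of 1395) from replicate 1 to replicate 2 and 50.9% (890 of 1749) from replicate 2 to replicate 1. The sites were below the unmarked peaks from replicate 1 and slightly above them from replicate 2. These differences were not tested. Both directions compare the same pair of libraries and are not independent of each other.

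Sites called in both ATAC-seq replicates, in peaks touched by both H3K27me3 replicates, numbered 39 in 38 peaks (27.1% of the 144 sites). At the other extreme, 19 sites (13.2%) rested on 1 replicate of each assay. At the base pairs of the site itself the support was lower, since intervals of all 4 libraries met at 23 sites (16%).

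H3K27me3 intervals covered the sites less often than the rest of the same peaks. In the 108 peaks with both H3K27me3 replicates, both covered 73.4% of base pairs but 40.2% of site midpoints (45 of 112). Averaging over sites the share of their own peak gave 66.5%. Deeper than 1 kb from a border the values were 77.2% of base pairs and 48.1% of midpoints (38 of 79), so the gap in pooled base pairs was not limited to the borders. Each replicate alone showed it, with 82.7% of base pairs and 58.0% of midpoints covered in replicate 1 and 90.7% and 76.8% in replicate 2. Base pairs were pooled over peaks, so wide peaks weighed most. The average over sites was not made for the deeper part or for single replicates. At sites of both ATAC-seq replicates 46.2% of midpoints (18 of 39) were covered by both, and at the others 37.0% (27 of 73).

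Accessible sites stood both at the borders and deep within the domains. Of the 144 sites 14 (9.72%) crossed a border, 37 (25.7%) lay inside within 1 kb of one and 93 (64.6%) lay deeper. The median distance from site to nearer border was 2063.5 bp and the largest 36140 bp. Site midpoints within 1 kb of a border numbered 50 (34.7%), whereas on average 19.7% of a site's own peak lay that close. The rule takes in sites that reach a peak by 1 bp, which adds to the border share. Among the 39 sites of both ATAC-seq replicates in peaks of both H3K27me3 replicates 10 midpoints (25.6%) lay within 1 kb. Their peaks were wider, with a median of 20799 bp against 12499 bp over all sites. A smaller part of those peaks lies near a border, so 25.6% cannot be set against 19.7%. The matching share of their own peaks was not computed. Lists of single replicates gave 38.4 ± 3.79% (SD, n = 2) of midpoints, beside 24.9 ± 6.91% of a site's own peak on average.

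**Figure D3:**
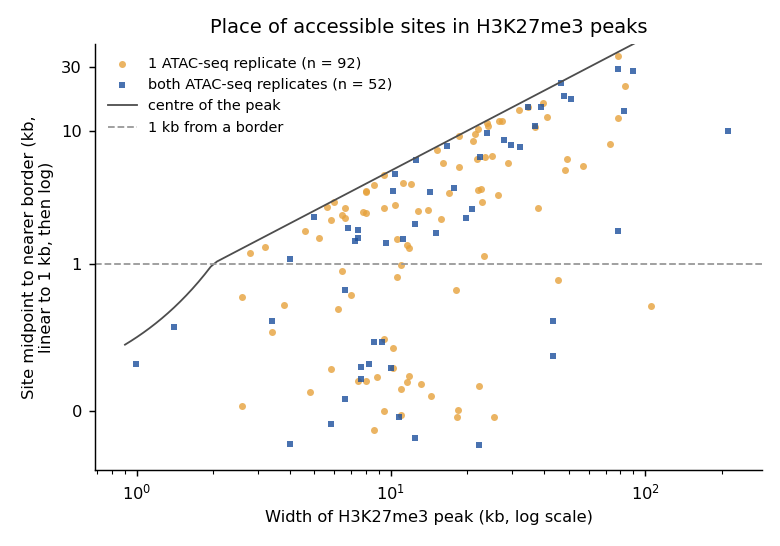
Distance from the midpoint of each of the 144 sites to the nearer border of its H3K27me3 peak (y axis, kb, linear up to 1 kb and logarithmic above; negative values are outside) against peak width (x axis, kb, log scale), with the solid line at the peak centre. Of the midpoints 50 lie at or below the dashed line at 1 kb, and squares mark the 52 sites of both ATAC-seq replicates.

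A border of a merged peak was not always the end of H3K27me3. Beyond the border nearest to the site another H3K27me3 peak began within 5 kb for 64 of 144 sites (44.4%). This was so for 16 of the 50 sites near a border (32.0%) and for 48 of the 94 deeper ones (51.1%).

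Across borders of all H3K27me3 peaks without H3K4me3, midpoints of ATAC-seq peaks without H3K4me3 were sparser inside than outside. Inside they numbered 0.484 per megabase in the outermost kilobase, 0.258 from 1 to 2 kb, 0.297 from 2 to 5 kb, 0.369 from 5 to 10 kb and 0.552 from 10 to 20 kb. Outside they numbered 1.47 in the first kilobase and 2.49 from 10 to 20 kb. The higher value in the outermost kilobase was slight in the lists of single replicates, at 0.182 against 0.176 from 1 to 2 kb in replicate 1 and 0.282 against 0.229 in replicate 2. The step across the border was present in both, from 0.182 to 0.681 and from 0.282 to 1.02.

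**Figure D4:**
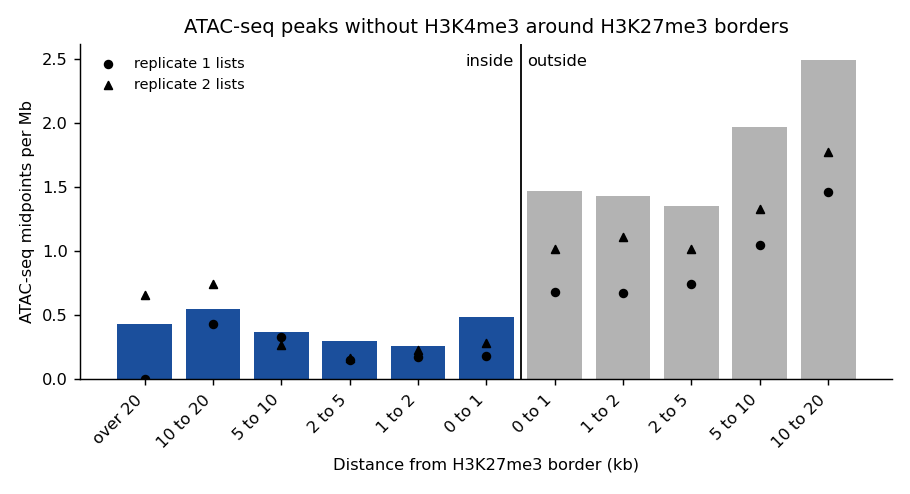
Midpoints per megabase of ATAC-seq peaks without H3K4me3 (y axis) by distance from the border of H3K27me3 peaks (x axis, kb), inside in blue and outside in grey, with bars for merged lists and points for each replicate's own lists. The bars rise from 0.484 in the last kilobase inside to 1.47 in the first kilobase outside.

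H3K27ac, H3K9ac and H3K36me2 were rare in the chosen peaks, as they were in the peaks not chosen. The rule favours this for acetylation, since it left out peaks with H3K4me3. H3K27ac touched 1 of 140 (0.714%, against 0.354% of the peaks not chosen), H3K9ac touched 1 (against 0.366%) and H3K36me2 touched 3 (2.14%, against 0.885%). The peaks not chosen include those with H3K4me3, which held most of the acetylation. Among the 42879 peaks that touched neither ATAC-seq nor H3K4me3, H3K27ac touched 12 (0.0280%), H3K9ac touched 0 and H3K36me2 touched 358 (0.835%). The chosen shares were higher than these, but they rest on 1 to 3 peaks, and no difference is read from them. In the 125 accessible peaks that also had H3K4me3, H3K27ac was present in 96 (76.8%), H3K9ac in 104 (83.2%) and H3K36me2 in 17 (13.6%).

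At the sites themselves each of the 3 marks touched 1 of 144. Among other ATAC-seq peaks without H3K4me3 and H3K27me3, H3K27ac touched 1664 of 4557 (36.5%), H3K9ac 610 (13.4%) and H3K36me2 2274 (49.9%). The chosen peaks were nonetheless nearer to active chromatin than most H3K27me3 peaks, but the rule itself favours this. It asks for an ATAC-seq peak, while peaks not chosen lay a median of 161649 bp from one. Of the 20273 ATAC-seq peaks 15565 touched H3K4me3. The distances were not compared within width classes, and how far they follow from the rule was not tested. Their median distance was 46329 bp to H3K4me3, 49231 bp to H3K27ac and 42201 bp to H3K36me2, against 157198, 166735 and 161601 bp for peaks not chosen. Sites lay a median of 53197 bp from H3K4me3, farther than other ATAC-seq peaks without H3K4me3 and H3K27me3 at 17227 bp.

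The 4 peaks with another mark were named after their values were seen. The peak at Zcchc14, which encodes a zinc finger protein of the CCHC type, was the one with acetylation. There H3K27ac intervals of 255 bp in replicate 1 and 340 bp in replicate 2 and an H3K9ac interval of 238 bp in replicate 2 met a site of 244 bp called in ATAC-seq replicate 2 alone. H3K36me2 of replicate 1 alone overlapped the peak at Gm7827 by 4199 bp and touched its site. It also reached 2799 bp into a peak near Eif4b, a translation initiation factor gene, in replicate 1, and lay at Bicral, a gene of a BAF-type remodelling complex, in both replicates with 4399 and 2999 bp of overlap. One further site crossed the border of its peak and touched an H3K4me3 peak outside it.

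By position, the chosen peaks reached gene ends more often than other H3K27me3 peaks. The gene table gives no strand, so a window from 3 kb outside to 2 kb inside was set at either end of each gene. It was touched by 68 peaks (48.6%, against 26.6% of those not chosen), while 34 lay in gene interiors (24.3%, against 32.7%) and 38 in neither (27.1%, against 40.7%). Below 10 kb the shares at gene ends were close, at 21.4 and 19.2% below 5 kb and 27 and 26.3% from 5 to 10 kb. They parted in wider peaks, at 48.7 and 36% from 10 to 20 kb and 72.0 and 50.7% above. The last class has no upper limit, and a wider peak touches more gene windows. How far width within the classes accounts for the difference was not tested.

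By site, gene ends held 27 sites (18.8%), interiors 60 (41.7%) and neither 57 (39.6%), beside 24.1, 48.6 and 27.3% of other ATAC-seq peaks without H3K4me3 and H3K27me3. Of ATAC-seq peaks with H3K4me3 69.5% lay at gene ends.

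The chosen peaks touched 136 genes, of which 84 were protein-coding, 39 were long noncoding RNA genes and 10 pseudogenes, and 44 peaks touched no gene. The sites touched 73 genes, 52 of them protein-coding. Of 100 autosomal developmental transcription factor genes, the best known Polycomb targets, 33 touched any H3K27me3 peak (33.0%) and 1, Hoxc13, touched a chosen peak. Without H3K27me3 replicate 1 or without H3K27me3 replicate 2 it was 0. Of 35 neuronal genes 22 touched H3K27me3 (62.9%) and 0 a chosen peak. The lists of T lineage (38 genes), helper subset factors and cytokines (31), B lineage (16), myeloid lineage (21), Polycomb complex (26) and housekeeping genes (17) also had 0 in chosen peaks, with 6, 8, 6, 6, 3 and 0 in any H3K27me3 peak. Over all 20665 protein-coding genes 23.4% touched H3K27me3 and 84 (0.406%) a chosen peak, so few listed genes would be in chosen peaks at that share. No listed gene was touched by a site.

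The widest member covered 211199 bp at the HoxC cluster (chr15:102732801-102943999) and touched Hoxc13 and Hoxc12, homeobox genes of posterior patterning, and the noncoding Cistr. H3K27me3 covered 203798 bp in replicate 1 and 192998 bp in replicate 2. Its site (chr15:102742593-102742915) measured 323 bp in ATAC-seq replicate 1 and 317 bp in replicate 2 and lay 9792 bp from the border, near Gm36560. It was thus in both ATAC-seq replicates, but only the H3K27me3 intervals of replicate 1 covered it. The nearest H3K4me3 was 938 bp outside the peak. Hoxc13 was in no chosen peak once either H3K27me3 replicate was left out.

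The peak at Zcchc14 (chr8:121601401-121679799) was the only one with 3 sites. The site at the gene end (chr8:121650383-121650942) measured 560 bp in ATAC-seq replicate 1 and 397 bp in replicate 2, 28857 bp from the border, the deepest of the 39. A site near the border measured 225 and 357 bp and was covered by H3K27me3 of replicate 2 alone, and the acetylated one 0 and 244 bp. H3K27me3 covered 70798 and 77598 bp of the 78399 bp peak.

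Iqsec3 encodes an exchange factor for Arf GTPases of inhibitory synapses, and its peak (chr6:121405001-121487399) was a single interval of 82399 bp in both H3K27me3 replicates. The site (chr6:121473133-121473401) was 252 bp in ATAC-seq replicate 1 and 225 bp in replicate 2. It lay 13998 bp inside the border, within Iqsec3 beside its CG-rich start. Here H3K27me3 ran without a break in both replicates across an accessible site found in both.

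At Egflam, which encodes the matrix protein pikachurin, the site (chr15:7216978-7217389) was 295 bp in replicate 1 and 412 bp in replicate 2 and stood 22810 bp from the border of a 46799 bp peak that also touched Lifr, the receptor gene for leukaemia inhibitory factor. The site was near the centre of the peak, in a gap between H3K27me3 intervals of replicate 1 and covered in replicate 2. At Cgas, the gene of the cytosolic DNA sensor that makes cGAMP, the site (chr9:78439295-78439806) was 382 and 512 bp, 7593 bp from the border of a 29799 bp peak, and H3K4me3 began 417 bp outside that peak. H3K27me3 of both replicates touched the Cgas site, but its midpoint lay in a gap between intervals of replicate 2.

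**Figure D5:**
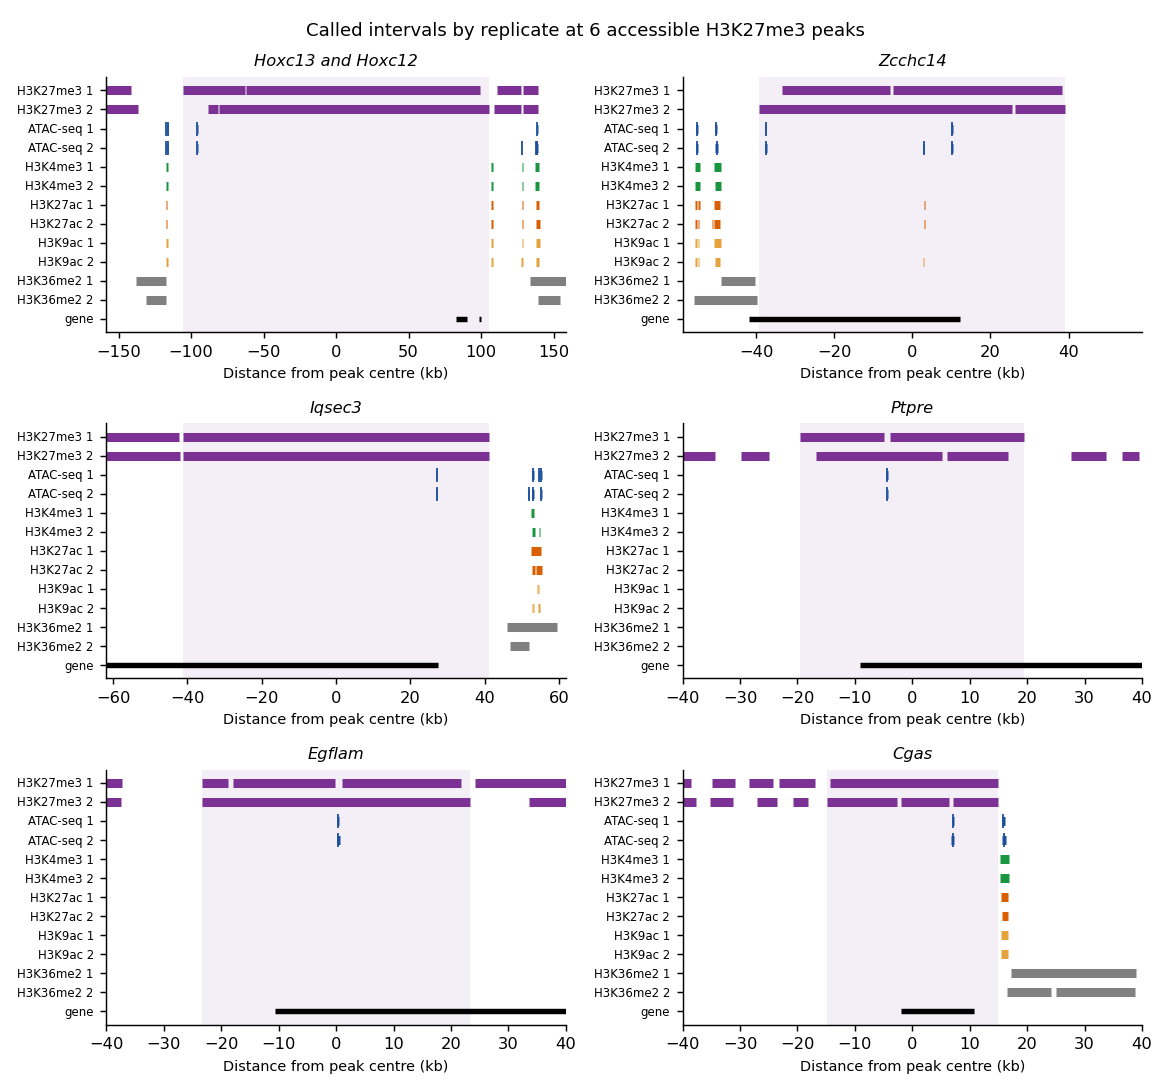
Intervals called in each replicate (rows, numbered 1 and 2) of the 6 assays around 6 chosen peaks, by distance from the peak centre (x axis, kb), with the merged H3K27me3 peak shaded and the named genes as black bars in the lowest row; short ATAC-seq intervals carry a tick. Sites of both ATAC-seq replicates lie within each shaded peak, and at Zcchc14 another site, in replicate 2 alone, meets H3K27ac.

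Further sites of both ATAC-seq replicates in gene interiors lay at Mamdc2 (359 and 292 bp in ATAC-seq replicates 1 and 2, 17296 bp from the border), at Ptpre, a receptor-type tyrosine phosphatase gene (303 and 211 bp, 14938 bp), and at Dennd5a, an exchange factor gene for Rab GTPases (463 and 371 bp, 14864 bp). Those at the noncoding Gm33557 (200 and 270 bp, 10737 bp) and at Acvr1c, the gene of the activin receptor ALK7 (200 and 301 bp, 8368 bp), had the smallest possible width in replicate 1. All 5 lay in peaks of 27999 to 51199 bp that both H3K27me3 replicates touched. At the sites of Mamdc2, Dennd5a and Gm33557 both replicates had H3K27me3, whereas those of Ptpre and Acvr1c lay in gaps of replicate 1.

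The remaining 5 of the 15 deepest replicated sites touched no gene. The site nearest 1700063H04Rik lay 28038 bp inside an 89599 bp peak (252 and 200 bp), and H3K4me3 began 122 bp outside that peak. One lay 76697 bp from Nnt (251 and 216 bp) and one 54590 bp from Cwc27 (258 and 270 bp). The other two lay 7069 bp from Gm46819 (232 and 267 bp) and 52453 bp from Gm23095 (200 and 384 bp). The sites near Nnt, Cwc27 and Gm23095 were the farthest of these from an annotated gene. At those sites both replicates had H3K27me3, while the sites near 1700063H04Rik and Gm46819 had it in replicate 2 alone. The HoxC site touched no gene either.

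Of the 5 widest peaks, those at HoxC, 1700063H04Rik and Iqsec3 held a site of both replicates and the other two did not. The 105199 bp peak over Dpp4, the gene of the T cell surface peptidase CD26, and Slc4a10 held a site of 275 bp in ATAC-seq replicate 1 and none in replicate 2, 574 bp from the border. The 83399 bp peak at Slc1a7, a retinal glutamate transporter gene, held one of 218 bp in replicate 2 and none in replicate 1. At Sbk2, a kinase gene chosen after its values were seen, H3K27me3 was called in replicate 2 only (8799 bp) and ATAC-seq in replicate 1 only (216 bp), so its promoter overlap rested on 1 replicate of each assay.

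The members were spread unevenly over the chromosomes. Chromosomes 8 and 15 held 14 each, chromosome 7 held 13, chromosome 4 held 12 and chromosome 13 held 11, while chromosomes 12 and 16 held 1 each and chromosome 14 held 0. As a share of the H3K27me3 peaks of a chromosome this was at most 0.725%, on chromosome 7, beside 0.323% over all autosomes. Chromosomes 8 and 4 stood at 0.686 and 0.662%, and chromosomes 12, 16 and 14 at 0.0593, 0.0703 and 0%. Chromosome 17, with 6 of 1026, stood at 0.585%, close to 0.598% on chromosome 13 and 0.605% on chromosome 15. How far this follows the ATAC-seq peaks or the peak widths of each chromosome was not tested.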

How the data were processed

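The authors deposited, for each replicate, a list of called intervals with chromosome, start and end. The deposited values are positions in base pairs, with no score, read count or normalization, so the depth behind each call is unknown and nothing that needs it was computed. Per the methods and the submitters' processing notes, reads were aligned with STAR 2.5 to GRCm38, unique alignments were kept and duplicates were treated with Picard. Narrow marks and ATAC-seq were called with MACS2 and broad marks with Epic on bins of 200 bp, with input as the ChIP-seq control. The methods discard reads on sex chromosomes, yet the lists hold intervals on chromosome X. Only the 19 autosomes were used. Input and RNA-seq libraries were left out.

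Overlapping or adjoining intervals of the replicates were joined into merged peaks, and touching means at least 1 bp. Gene positions came from the RefSeq table of GRCm38.p6, which lacks strand, and promoters from its partial sequence table of 300 bases. Named regions were the 15 chosen peaks, with peak and site each called in both replicates, whose site lay farthest from a border, the 5 widest peaks, the limits of the rule, and listed genes in chosen peaks, with the gene at the site or the nearest one. Others are marked as chosen after their values were seen. The members and gene lists were chosen with earlier results of these data known. Alternatives were single replicates, other overlaps, merging distances, border widths and gene sets, and gene starts of the promoter table, which was added after the data were seen. On simulated data 100 of 100 planted sites were recovered, and 0 of 30 comparisons with bedtools 2.31.1 differed. Python 3.11.15, numpy 2.4.6, pandas 2.3.3 and matplotlib 3.10.9 were used.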

Additional observations from a re-analysis of the deposited data

How the results depend on the processing

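No paired analysis was possible because the results come from no test. The number of chosen peaks was 38 when both replicates of both assays were required and 265 with H3K4me3 not excluded, and it ran from 55 to 144 with replicates left out. Site midpoints within 1 kb of a border made up 25.6% with both replicates required, 28.8% with an overlap of 200 bp, 30.4% with an overlap of 50% of the ATAC-seq peak and likewise with its midpoint inside, and 46.3% with H3K4me3 not excluded. For borders of 500 and 2000 bp the shares were 24.3 and 47.2%, and 39.6% lay in the outer 25% of the way from border to centre. Peaks with H3K27ac or H3K9ac made up 2.63% with both replicates and 40.4% with H3K4me3 not excluded. For H3K36me2 the shares were 5.26 and 7.55% under these, 1.56% with an overlap of 200 bp, 1.53% with 50% overlap or with the midpoint inside, 1.52% without peaks within 1000 bp of H3K4me3 and 0.694% where the mark had to touch the site. Peaks at gene ends made up 57.9% with both replicates, 67.5% with H3K4me3 not excluded, 32.9% for protein-coding genes and 27.9% for gene starts of the promoter table. The matching shares of peaks not chosen were not computed for these settings. Listed genes numbered 2 with H3K27me3 merged within 1000 bp, 6 with H3K4me3 not excluded and 0 without peaks within 1000 bp of H3K4me3. Sites in both ATAC-seq replicates made up 51.6% with H3K4me3 not excluded, and 64.3% of peaks had 50% coverage by each H3K27me3 replicate. With replicates left out the ranges were 33.3 to 43.8% for midpoints near a border, 0.943 to 2.08% for H3K27ac or H3K9ac, 1.24 to 3.00% for H3K36me2, 37.2 to 50.6% for gene ends, 0 to 1 for listed genes, 36 to 39.1% for sites in both ATAC-seq replicates and 75.0 to 79.0% for peaks in both H3K27me3 replicates. Single libraries that changed the number of chosen peaks most were H3K27me3 replicate 2 (86 without it) and ATAC-seq replicate 2 (88 without it). The cause of these changes was not tested. The unknown depth limits what the single-replicate sites can show.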
